A study of Homo sapiens with 27 samples.

Results

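Interferon-stimulated genes are switched on in nearly every cell type that meets an interferon. The 9 described here, *IRF1*, *IRF9*, *IFIT1*, *IFIT2*, *IFIT3*, *ISG15*, *MX1*, *OAS1* and *IFI6*, were taken by gene symbol from the 61533 rows of the count table, with no use of their values. They were measured by bulk mRNA sequencing in 92.1, an established *GNAQ* mutant uveal melanoma cell line, so all groups carry that mutation and come from 1 line. The 27 libraries form 9 groups of 3 replicates, namely DMSO at day 0, then DMSO or 100 nM VS-4718 (FAKi), an inhibitor of focal adhesion kinase, at days 3, 7, 14 and 21, with medium and treatment renewed every 72 h. The FAKi comparisons ask how these genes differ under prolonged FAK inhibition, and the DMSO series sets each day against day 0.

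Interferons are secreted proteins that bind receptors of neighbouring cells and activate the JAK kinases. Type I and type III interferons lead to a complex containing STAT2 and IRF9 that binds the interferon-stimulated response element (ISRE), while the response to interferon gamma runs through the gamma-activated site (GAS). The genes behind these elements block viral entry, translation and replication, and some, such as *USP18* and *SOCS1*, damp the receptor. Among the 9, IRF1 and IRF9 are transcription factors. The IFIT proteins bind foreign RNA and hinder its translation, ISG15 is a ubiquitin-like modifier, MX1 is a GTPase that traps viral particles, OAS1 makes the second messenger that activates RNase L, and IFI6 is a small membrane protein with antiviral and cell survival functions.

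The promoters of the members show both elements, and 4 stretches are given because 3 belong to the genes called below and the *IFIT1* stretch is a classic ISRE for comparison. Promoters were RefSeq windows of 250 bases before to 50 bases after a start on GRCh38.p14, matched for 8 of the 9 genes (*IFIT2* had no entry). Capitals mark matches to the ISRE letters GAAANNGAAA or the GAS letters TTCNNNGAA, searched on both strands.
ISG15: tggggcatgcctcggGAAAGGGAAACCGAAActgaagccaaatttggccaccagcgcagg
IFI6: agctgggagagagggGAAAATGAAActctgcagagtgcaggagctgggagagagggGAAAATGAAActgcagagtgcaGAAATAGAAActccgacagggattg
IFIT1: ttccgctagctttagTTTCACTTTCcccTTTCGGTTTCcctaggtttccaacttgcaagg
IRF1: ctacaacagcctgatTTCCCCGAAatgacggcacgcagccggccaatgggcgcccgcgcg
The *ISG15* stretch is chr1:1013369-1013428 (plus strand), with 2 overlapping ISRE matches 98 to 113 bases before the start. The *IFI6* stretch is chr1:27672261-27672363 (minus strand), with 3 ISRE matches 84 to 156 bases before the start. The *IFIT1* stretch is chr10:89392492-89392551 (plus strand), where 2 ISRE matches lie on the opposite strand, and the *IRF1* stretch is chr5:132490853-132490912 (minus strand), with 1 GAS match.

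The ISRE letters were found in 5 of the 8 genes with a promoter (*ISG15*, *IFI6*, *IFIT1*, *IFIT3* and *MX1*), against 4.38% of the 27305 genes in the promoter table and 67.7% of 31 other interferon-stimulated genes. The GAS letters were found in 4 of 8 (*IRF1*, *IRF9*, *OAS1* and *MX1*), against 9.38% of all genes and 29.0% of the 31 other interferon-stimulated genes. In *MX1* a GAS match shares bases with an ISRE match. A match describes these letters and shows no binding.

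Total counts per library ran from 12161994 to 43651551. At days 3 and 14 every DMSO library was deeper than every FAKi library. Of 7 melanocyte lineage genes, *PMEL* was at 2612 CPM or more in every library, while *DCT* ran from 2.49 to 28.45 CPM. *PTPRC*, a marker of blood cells, had at most 4 counts. The fibroblast markers *COL1A1* and *LUM* had at least 53 and 27 counts in every library. The library labelled FAKi day 7 replicate 1 stood closer to FAKi day 14 replicate 1 (root mean square log2 difference 0.215) than any library stood to a replicate of its own group (0.228 to 0.806), and day 7 is therefore given with and without it. In DMSO day 21 replicates 1 and 2, transcripts under 1000 bases lay above the mean of all libraries by a median log2 of 0.77 and 0.70, against 0.22 in replicate 3, so short members at day 21 are also given with a correction for transcript length. The column of that replicate 3 does not spell its day as those of replicates 1 and 2 do, while its title and labelled day are both 21. The mitochondrial share of counts was 5.49%, 5.49% and 9.75% in the DMSO libraries of day 21 and 10.7% to 11.2% in the FAKi libraries of that day, against 16.98% to 18.8% at day 0. At day 3 it was 18.1%, 9.59% and 8.61% in DMSO and 16.8% to 18.7% in FAKi.

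The members were weakly expressed. Levels between genes are compared as CPM (counts scaled to library size) per kilobase of transcript, averaged over the 27 libraries. *IFI6* stood at 12.4, *ISG15* at 10.7 and *IRF9* at 6.04, well above *IFIT3* at 1.69. The levels of *IRF1* (0.882), *MX1* (0.756), *IFIT2* (0.545) and *IFIT1* (0.504) were below 1 CPM per kilobase. *OAS1* was nearly silent at 0.0480, with 0 to 16 counts per library and none in 8 of the 27. A count of 0 allows up to 3 counts, or 0.0873 to 0.247 CPM of the library total in those 8 libraries, by counting error only. On the same scale *STAT2*, a signal transducer of the pathway, stood at 12.1.

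FAKi changed few members. A gene was called where the edgeR adjusted p (Benjamini-Hochberg over all genes tested) was at most 0.05 and the log2 fold change lay beyond 1. At day 3, 0 of 9 members were called, as were 0.0% of all genes. At day 7 it was 0 of 9 against 0.0269% of all genes, at day 14 1 of 8 (*IRF1*, higher) against 1.66%, and at day 21 1 of 9 (*IFI6*, lower) against 5.28%. With the replicate block, day 21 again had 1 of 9 (*IFI6*), against 8.94% of all genes. A single gene of 8 or 9 is too few to set the members apart from that background.

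At an unadjusted p under 0.05, 1 of 9 members passed at day 3 against 23.8% of all genes and 0 of 9 at day 7 against 8.77%. The counts were 2 of 8 at day 14 against 24.6% and 2 of 9 at day 21 against 32.6%. DESeq2 called 0 members at day 3 and 0 at day 7, where it called 3.3% and 0.457% of all genes, and it called 1 at day 14 and 1 at day 21, against 1.65% and 7.88%. The median log2 fold change of the members was 0.07, 0.31, 0.21 and -0.04 at days 3, 7, 14 and 21, beside -0.02, 0.01, -0.01 and 0.02 for all genes tested. Without FAKi day 7 replicate 1, 0 members were called at day 7, while the genes called over the whole table went from 6 to 248.

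**Figure D1:**
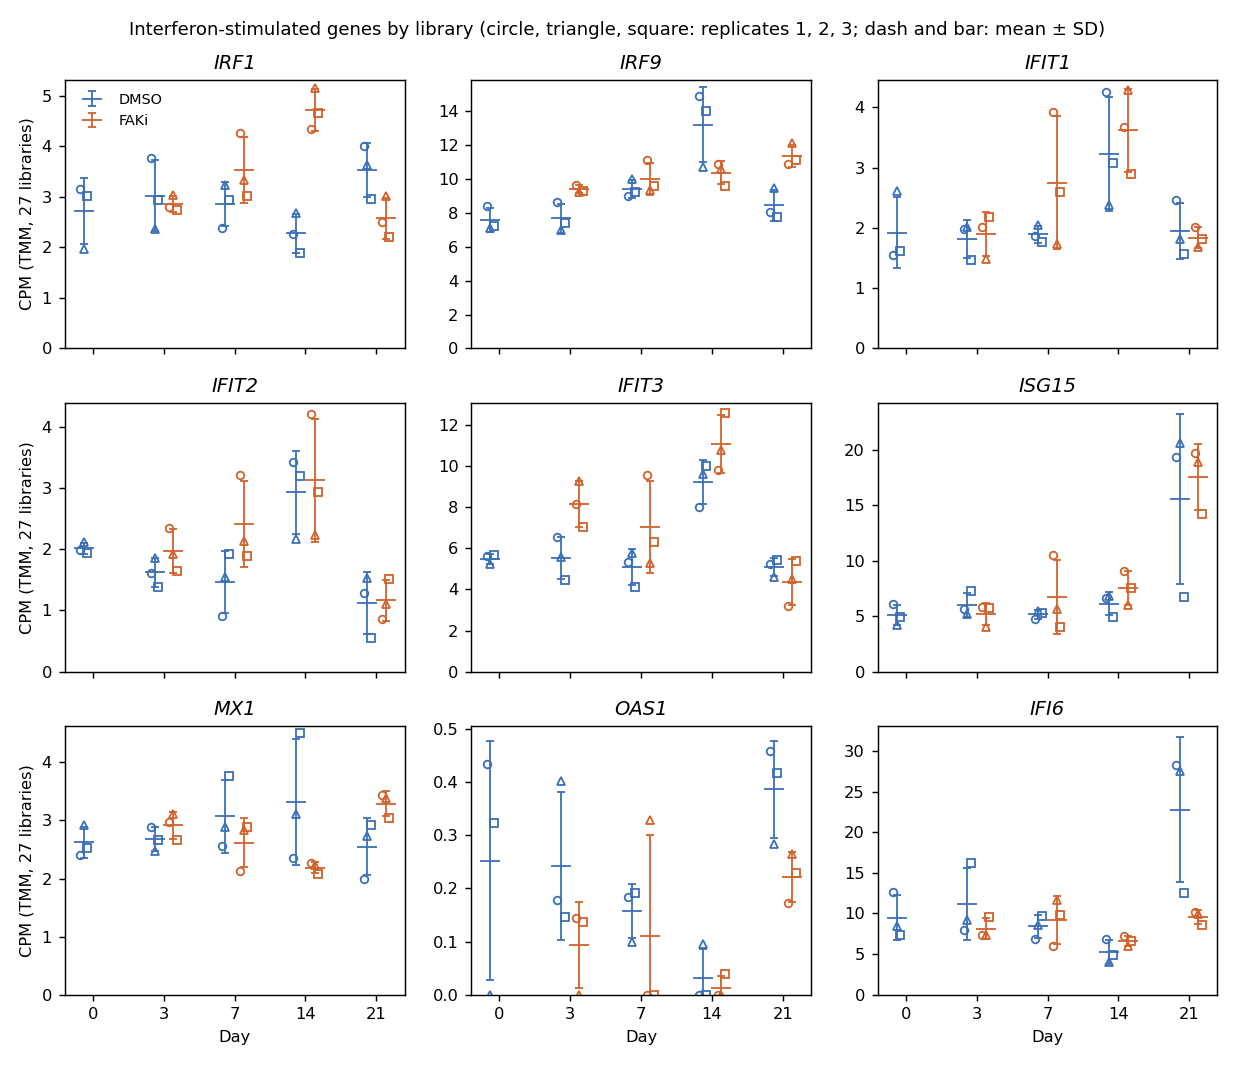
CPM of the 9 genes (y axis, scaled by TMM over 27 libraries, separate scale per gene) by day (x axis) in DMSO (blue) and FAKi (orange), with 1 symbol per library and the mean ± SD of 3 replicates. *IRF1* separates at day 14, where FAKi lies at 4.33 to 5.15 CPM and DMSO at 1.89 to 2.67 CPM, and *IFI6* in DMSO at day 21 reaches 28.3, 27.5 and 12.5 CPM.

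*IRF1*, the transcription factor induced by interferon gamma, rose under FAKi at day 14. FAKi libraries held 4.33, 5.15 and 4.66 CPM, and DMSO libraries 2.27, 2.67 and 1.89 CPM. All FAKi libraries were above all DMSO libraries, and FAKi day 14 was the highest of the 9 groups, with no overlap with the next one. The log2 fold change was 1.05 ± 0.27 (SE), a 2.06-fold difference, at an edgeR adjusted p of 0.0145. Without DMSO day 14 replicate 3 it was 0.93 (edgeR adjusted p = 0.0384), just inside the fold limit, and without FAKi day 14 replicate 2 it was 0.98 (edgeR adjusted p = 0.102), so the call is lost without either library. The DMSO level at day 14 (2.27 ± 0.387 CPM, SD, n = 3) was the lowest group mean of the gene.

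On the other days *IRF1* did not pass. At day 3 its log2 fold change was -0.08 ± 0.26, at day 7 0.31 ± 0.24 and at day 21 -0.42 ± 0.24. At day 21 FAKi libraries had 2.495, 3.01 and 2.21 CPM and DMSO libraries 4.01, 3.63 and 2.96 CPM, which overlap. In FAKi day 7 replicate 1 *IRF1* stood at 4.26 CPM, beside 3.33 and 3.01 CPM in the other replicates, and without that library the day 7 value was 0.16. The joint test that the FAKi effect differs between the 4 days called *IRF1* (edgeR adjusted p = 0.0230). Of the exon bases of *IRF1*, 16.3% overlap genes on the opposite strand, among them *IRF1-AS1*, and since the strand setting of the counting is not named, reads of both cannot be told apart.

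*IRF9*, the DNA-binding partner of STAT2, had group means from 7.57 ± 0.733 to 13.2 ± 2.23 CPM (SD, n = 3). At day 21 it stood at 10.9, 12.1 and 11.1 CPM in FAKi and 8.07, 9.48 and 7.78 CPM in DMSO, groups that do not overlap. The log2 fold change of 0.48 ± 0.16 did not pass (edgeR adjusted p = 0.0803). With the correction for transcript length it was 0.59 (edgeR adjusted p = 0.0261), inside the fold limit and not called. At day 14 the FAKi mean was the lower one, with overlapping levels of 10.9, 10.6 and 9.60 CPM in FAKi and 14.9, 10.7 and 14.0 CPM in DMSO, and a log2 fold change of -0.35 ± 0.17 (edgeR adjusted p = 0.200). The joint test across days gave an edgeR adjusted p of 0.0590. Since 93.1% of the counted *IRF9* exon bases also belong to the annotated same-strand gene ENSG00000259529, how reads were shared between both is uncertain.

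The *IFIT* genes lie side by side on chromosome 10 (hg38), *IFIT2* at chr10:89285053-89309240, *IFIT3* at chr10:89327307-89342166 and *IFIT1* at chr10:89392546-89406486. None of them was called under FAKi on any day. *IFIT3* came nearest at day 3, with 8.17, 9.25 and 7.03 CPM in FAKi and 6.54, 5.58 and 4.46 CPM in DMSO, groups that do not overlap. Its log2 fold change was 0.57 ± 0.22 (edgeR adjusted p = 0.162), and 0.51 with the length correction (edgeR adjusted p = 0.148). It was 0.47 ± 0.26 at day 7, 0.26 ± 0.17 at day 14 and -0.17 ± 0.24 at day 21, none of which passed.

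At day 7 the *IFIT* values lean on 1 library. FAKi day 7 replicate 1 had 3.92 CPM of *IFIT1*, 3.22 CPM of *IFIT2* and 9.57 CPM of *IFIT3*, each the highest of the 6 libraries of that day. The log2 fold changes at day 7 went from 0.53 to 0.17 for *IFIT1*, from 0.72 to 0.46 for *IFIT2* and from 0.47 to 0.18 for *IFIT3* without it. Over all groups the 3 genes had their highest means at day 14 in both treatments, for example *IFIT3* with 11.1 ± 1.41 CPM under FAKi against 9.22 ± 1.08 CPM under DMSO (SD, n = 3), and the treatments overlap. Averaged over the 4 days, the FAKi effect on *IFIT3* was 0.28 ± 0.12 (edgeR adjusted p = 0.102).

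*ISG15*, whose protein is attached to other proteins in the manner of ubiquitin, did not pass under FAKi on any day, with log2 fold changes from -0.19 at day 3 (0.0146 with the length correction) to 0.38 at day 7. At day 21 it stood at 19.7, 18.9 and 14.2 CPM in FAKi and 19.4, 20.6 and 6.76 CPM in DMSO. Both groups were above the libraries of the earlier days with the exception of DMSO replicate 3. The log2 fold change of FAKi was 0.23 ± 0.36, and it was -0.12 without that DMSO library. With the length correction it was 0.43 (edgeR adjusted p = 0.3125). With the correction and the replicate block it was 0.51 (edgeR adjusted p = 0.0517). At day 7 *ISG15* was at 10.5 CPM in FAKi replicate 1 and at 5.68 and 4.01 CPM in the other replicates, and the day 7 value without replicate 1 was -0.08.

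*MX1* and *OAS1* gave no call. *MX1* was at 2.26, 2.23 and 2.08 CPM in FAKi at day 14 and 2.36, 3.11 and 4.502 CPM in DMSO, which do not overlap, with a log2 fold change of -0.61 ± 0.32 (edgeR adjusted p = 0.265). At day 21 FAKi was higher in all libraries, at 3.44, 3.38 and 3.04 CPM against 2.00, 2.73 and 2.92 CPM (log2 fold change 0.42 ± 0.25, edgeR adjusted p = 0.262). The counts of *OAS1* were 3, 0 and 2 in FAKi and 8, 11 and 4 in DMSO at day 3, and 0, 0 and 1 against 0, 3 and 0 at day 14, where it had too few counts to be tested. At day 21 the counts of *OAS1* were 4, 5 and 8 in FAKi and 16, 5 and 9 in DMSO. The log2 fold change was -0.76 ± 0.52 (edgeR adjusted p = 0.3385). At days 3 and 21 the CPM of all FAKi libraries lay below those of all DMSO libraries. The mean FAKi effect over the 4 days was -0.90 ± 0.62 (edgeR adjusted p = 0.347). At such low counts none of these differences passed.

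*IFI6*, the interferon-induced membrane protein, was lower under FAKi at day 21. Its level was 10.2, 9.94 and 8.60 CPM in FAKi and 28.3, 27.5 and 12.5 CPM in DMSO. The groups do not overlap, but DMSO replicate 3 lay closer to FAKi than to the other DMSO replicates. The log2 fold change was -1.20 ± 0.28 (SE; edgeR adjusted p = 0.0344), and FAKi at day 21 (9.58 ± 0.858 CPM) was near DMSO at day 0 (9.47 ± 2.79 CPM, both SD, n = 3). The call was kept without DMSO replicate 3 (-1.48, edgeR adjusted p = 5.03e-08) and lost without any other library of the day (-1.24 to -1.03, edgeR adjusted p 0.0965 to 0.1525). Since *IFI6* is a short transcript (813 bases), it was also fitted with the length correction, which gave -1.002 (edgeR adjusted p = 0.0175), and with the correction and the replicate block it was -0.95 (edgeR adjusted p = 0.00210), inside the fold limit and no longer called.

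On earlier days *IFI6* did not pass. Its log2 fold change was -0.44 ± 0.28 at day 3 (-0.21 with the length correction), 0.12 ± 0.25 at day 7 and 0.32 ± 0.23 at day 14. The joint test across days called it (edgeR adjusted p = 0.0423). Of its exon bases, 26.3% are shared with the same-strand gene *LINC02574*. In bulk RNA, fewer cells expressing a gene and less RNA per cell cannot be told apart.

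**Figure D2:**
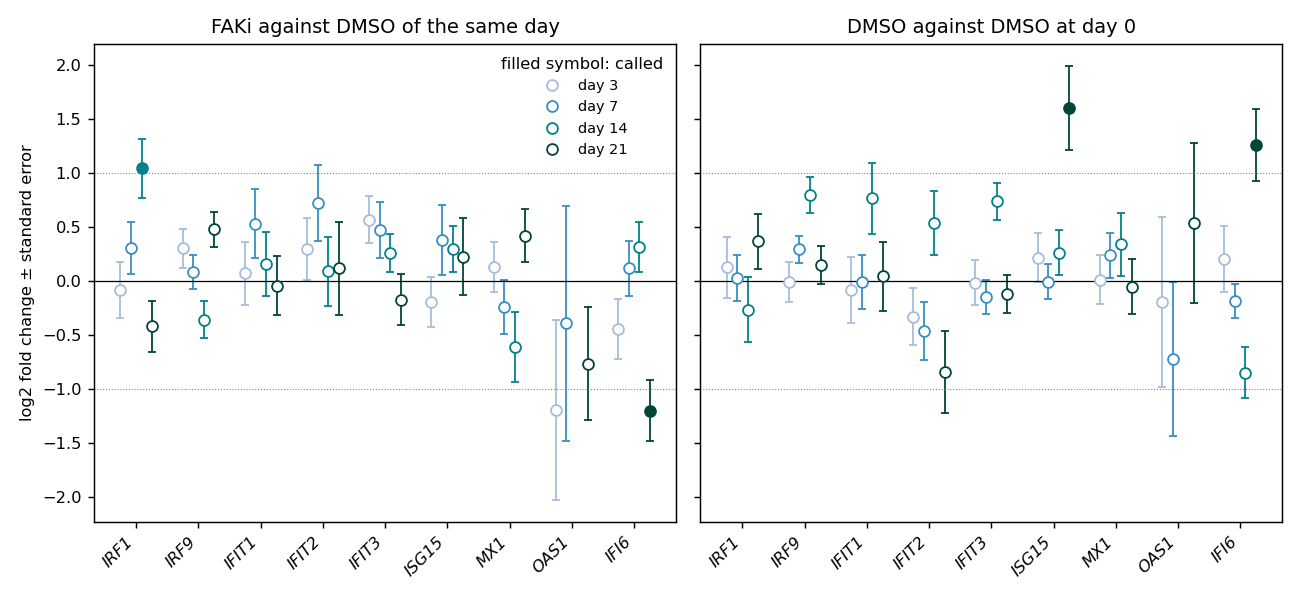
log2 fold change ± SE (y axis) of each member (x axis) by day, for FAKi against DMSO (left) and for DMSO against DMSO at day 0 (right), with filled symbols for called genes and dotted lines at the fold limit of 1. *IRF1* at day 14 (1.05) and *IFI6* at day 21 (-1.20) are filled on the left, and *ISG15* (1.60) and *IFI6* (1.26) at day 21 on the right. *OAS1* at day 14 is absent because it was not tested.

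Over the 24 libraries of both treatments, the mean FAKi effect called 0 of 9 members, against 1.89% of all genes (DESeq2 0 members, against 1.91%). At an unadjusted p under 0.05, 2 members passed, *IFIT3* at 0.28 and *IFI6* at -0.30, against 30.3% of all genes. The joint test across days called 2 of 9 members (*IRF1* and *IFI6*), against 10.3% of all genes, and DESeq2 called 3, adding *IRF9*, against 18.7%. At an unadjusted p under 0.05 it was 4 of 9 against 27.2%. Without FAKi day 7 replicate 1 the mean effect still called 0 members and the joint test called 3, again with *IRF9* added. The share of all genes called in that refit is not reported here.

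In DMSO, 2 members were higher at day 21 than at day 0. Against DMSO at day 0, 0 of 9 members were called at day 3 (0.0% of all genes), 0 of 9 at day 7 (0.699%), 0 of 8 at day 14 (6.07%) and 2 of 9 at day 21 (23.3%), a share close to that of all genes. DESeq2 gave 0, 0, 0 and 2 members against 0.154%, 0.511%, 6.34% and 23.1%. At an unadjusted p under 0.05 the counts were 0, 1, 4 and 2 members against 9.86%, 16.9%, 38.4% and 53.8%. These comparisons share their day 0 libraries, and the DMSO libraries of each day also serve in the FAKi comparisons.

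*ISG15* rose in DMSO by day 21, to 19.4, 20.6 and 6.76 CPM from 6.06, 4.24 and 4.95 CPM at day 0. The log2 fold change was 1.60 ± 0.39 (SE; edgeR adjusted p = 0.0122), with all day 21 libraries above all day 0 libraries. The call was lost without DMSO day 0 replicate 2 (1.48, edgeR adjusted p = 0.0503) or replicate 3 (1.57, edgeR adjusted p = 0.0562). *IFI6* rose too, from 12.6, 8.48 and 7.32 CPM to 28.3, 27.5 and 12.5 CPM, where DMSO day 21 replicate 3 falls just below DMSO day 0 replicate 1. Its log2 fold change was 1.26 ± 0.33 (edgeR adjusted p = 0.0161), and the call was lost without DMSO day 0 replicate 2 or 3 or DMSO day 21 replicate 1 or 2 (1.09 to 1.18, edgeR adjusted p 0.0512 to 0.0751).

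The members that rose are the shortest of the 9, at 782 and 813 bases. Over all genes the median log2 fold change of this comparison was 0.68 for transcripts under 1000 bases, 0.22 from 1000 to 4000 bases and -0.47 above 4000 bases. With the length correction *ISG15* stayed called at 1.04 (edgeR adjusted p = 0.0366), and *IFI6* did not, at 0.71 (edgeR adjusted p = 0.0670). For FAKi against DMSO at day 21 the same medians were -0.30, -0.09 and 0.16, at day 3 they were -0.26, -0.10 and 0.18, and at day 14 -0.02, 0.03 and -0.02. The mitochondrial share also differed between DMSO at day 21 (5.49% to 9.75%) and at day 0 (16.98% to 18.8%). Its part in the values of *ISG15* and *IFI6* was not tested, and time in culture cannot be told apart from it.

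**Figure D3:**
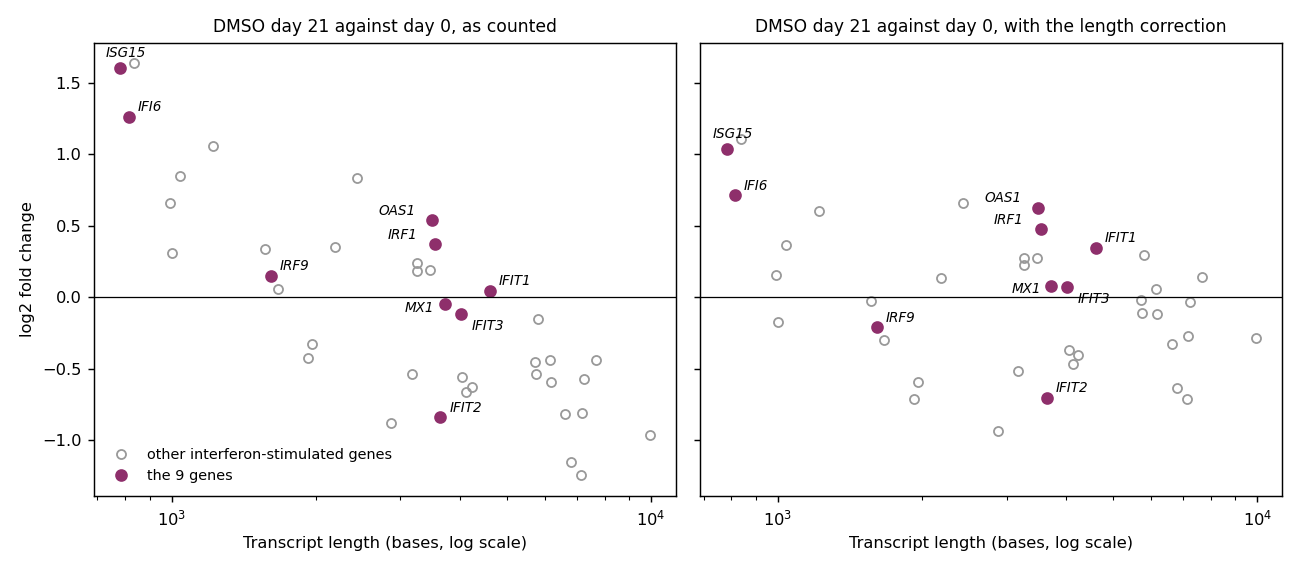
log2 fold change of DMSO at day 21 against day 0 (y axis) by transcript length (x axis, bases, log scale) for the members (filled) and other interferon-stimulated genes (open), as counted (left) and with the length correction (right). *ISG15* moves from 1.60 to 1.04 and *IFI6* from 1.26 to 0.71, and the downward slope with length on the left is weaker on the right.

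At day 14 in DMSO, 3 members had an edgeR adjusted p of at most 0.05 with a change inside the fold limit, where the adjusted p alone passed 28.3% of all genes. *IFIT3* was at 7.99, 9.62 and 10.0 CPM against 5.63, 5.22 and 5.65 CPM at day 0 (log2 fold change 0.74 ± 0.17, edgeR adjusted p = 0.00450). *IRF9* was at 14.9, 10.7 and 14.0 CPM against 8.41, 7.09 and 7.21 CPM (0.80 ± 0.17, edgeR adjusted p = 0.00241). *IFI6* was at 6.86, 4.03 and 4.93 CPM against 12.6, 8.48 and 7.32 CPM (-0.85 ± 0.24, edgeR adjusted p = 0.0151). The transcription factor and the RNA-binding protein lay higher while the membrane protein lay lower. The groups do not overlap in these 3 genes, which were picked by their adjusted p. The share of all genes without overlap was not counted. *IFI6* became called without DMSO day 0 replicate 3 (-1.01) or DMSO day 14 replicate 1 (-1.08), and its value was -0.58 without DMSO day 0 replicate 1.

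Interferons themselves were all but absent. Of 22 ligand genes, 12 had no count in any library, no library held more than 6 counts over all of them, and none had enough counts to be tested. *IFNB1*, the type I interferon most cells make first, had 1 count and *IFNG* 2 counts in the 27 libraries together. With 3 counts as the limit that a count of 0 allows, a ligand at 0 could have stood at up to 0.247 CPM in the shallowest library.

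Of the 11 receptors, kinases and STATs, 10 were expressed and tested on each FAKi day, with 0 calls. The share of all genes called was 0.0%, 0.0269%, 1.66% and 5.28% at days 3, 7, 14 and 21. The receptor gene *IFNLR1* was not tested, with 6 counts in total and none in 22 of the 27 libraries. At day 21 *STAT2* was at 57.5, 66.6 and 70.3 CPM in FAKi and 31.7, 27.4 and 41.6 CPM in DMSO, with no overlap. Over all 27 libraries the median of *STAT2* was 57.5 CPM, and its minimum was the 27.4 CPM of DMSO at day 21. Its log2 fold change of 0.9953 ± 0.18 (edgeR adjusted p = 0.0167) stopped just inside the fold limit. With the replicate block, which rests on correlated replicates at day 21, it was 1.01 (edgeR adjusted p = 0.000517) and called. With the length correction and the block it was 0.88, inside the limit. At days 3, 7 and 14 *STAT2* was at 0.48, 0.48 and 0.23, none with an adjusted p under 0.05.

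Of 39 other interferon-stimulated genes, 0 of 31 tested were called at day 3, 0 of 31 at day 7, 2 of 32 at day 14 and 3 of 31 at day 21, beside 0.0%, 0.0269%, 1.66% and 5.28% of all genes (8.94% at day 21 with the replicate block, where the list again had 3 of 31). At day 14 *IFI44L* and its neighbour *IFI44* lay lower in FAKi than in DMSO. *IFI44L* had 2.01, 2.44 and 3.10 CPM in FAKi and 6.42, 5.40 and 7.08 CPM in DMSO (log2 fold change -1.33 ± 0.26, edgeR adjusted p = 0.00138). *IFI44* had 2.65, 1.77 and 2.70 CPM in FAKi and 6.39, 3.24 and 5.51 CPM in DMSO (-1.09 ± 0.30, edgeR adjusted p = 0.0194), a call lost without 4 of the 6 libraries in turn. Over all 27 libraries the median was 3.60 CPM for *IFI44L* and 1.775 CPM for *IFI44*, and the maxima (7.08 and 6.39 CPM) lay in DMSO at day 14. Both genes lay lower under FAKi on the day on which *IRF1* lay higher.

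At day 21 *IFI44L* (-1.06 ± 0.27, edgeR adjusted p = 0.0424) and *IFI35* (-1.12 ± 0.23, edgeR adjusted p = 0.0231) lay lower in FAKi than in DMSO. *SAMD9L*, a growth-restricting antiviral gene, lay higher (1.34 ± 0.30, edgeR adjusted p = 0.0288). *SAMD9L* was at 6.15, 5.71 and 9.86 CPM in FAKi and 2.29, 2.78 and 3.84 CPM in DMSO. Over all 27 libraries its median was 7.36 CPM, and its minimum was the 2.29 CPM of DMSO replicate 1. *IFI35* stood at 14.8, 12.7 and 11.6 CPM in FAKi and 34.2, 34.5 and 19.2 CPM in DMSO. DMSO replicate 3 was the lowest of the DMSO libraries, as it was in *IFI6*. Over all 27 libraries the median of *IFI35* was 14.6 CPM, and its maximum was the 34.5 CPM of DMSO replicate 2. With the length correction *IFI35* was -0.96 and no longer called. None of the day 21 calls in this list or in those that follow held when FAKi day 21 replicate 1, 2 or 3 or DMSO day 21 replicate 1 or 2 was left out, and the call of *LUM* was also lost without DMSO day 21 replicate 3.

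**Figure D4:**
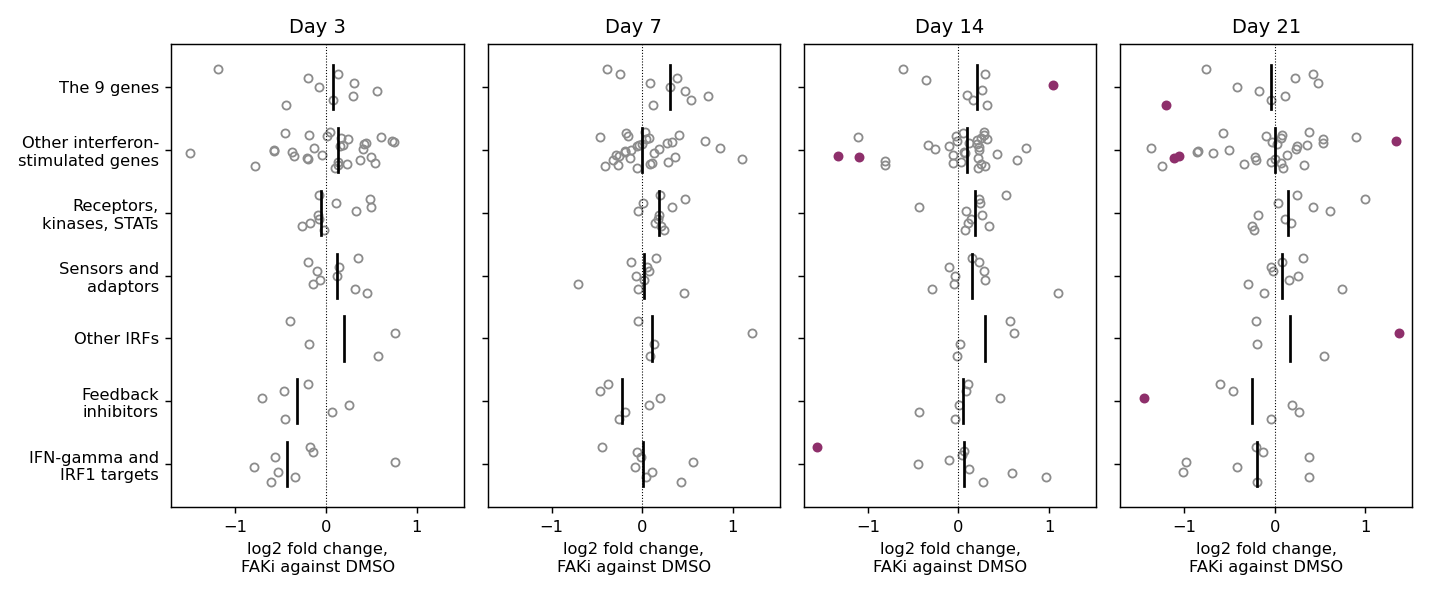
log2 fold change of FAKi against DMSO (x axis) for each tested gene of 7 interferon pathway lists (rows) at days 3, 7, 14 and 21 (panels), with filled symbols for called genes and a black bar at each list's median. Days 3 and 7 hold no filled symbol, and at day 14 the list of the 9 genes has *IRF1* filled to the right while *IFI44L*, *IFI44* and *WARS1* are filled to the left.

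The remaining lists held single calls at most, beside 1.66% of all genes at day 14 and 5.28% at day 21 (8.94% with the replicate block). A single call in so few genes does not set a list apart from that background. Of 17 targets of interferon gamma and IRF1, 9 were tested at day 14 and 1 was called, *WARS1*, the tryptophanyl-tRNA synthetase. It was at 51.6, 53.0 and 54.5 CPM in FAKi and 155, 150 and 162 CPM in DMSO (log2 fold change -1.56 ± 0.10, edgeR adjusted p = 8.95e-10). Its median over all 27 libraries was 316 CPM, above both groups, and its maximum was 377.5 CPM. *WARS1* was at 51.4 CPM in FAKi day 7 replicate 1 and at 328 and 333 CPM in the other replicates of that group. The list had 0 calls among 8 tested at days 3, 7 and 21, and its median log2 fold change at day 14 was 0.06.

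Of 7 other IRF genes, 4 were tested on each FAKi day and 1 was called, *IRF4*, a factor of lymphocytes and melanocytes, at day 21 (2.37, 2.22 and 2.04 CPM against 1.20, 0.682 and 0.694 CPM, log2 fold change 1.37 ± 0.32, edgeR adjusted p = 0.0325). Its median over all 27 libraries was 1.48 CPM and its maximum 6.575 CPM. *IRF7*, the amplifier of type I interferon production, was at 0.57 at day 14 (edgeR adjusted p = 0.183) and passed on no day. Of 6 feedback inhibitors, *SOCS1* was called lower in FAKi at day 21 (0.645, 0.529 and 0.516 CPM against 1.57, 1.59 and 1.62 CPM, -1.45 ± 0.31, edgeR adjusted p = 0.0271). Over all 27 libraries its median was 0.645 CPM, and its maximum was the 1.62 CPM of DMSO at day 21. *USP18*, which removes ISG15 from proteins and blocks the type I receptor, was at -0.60 at day 21 (edgeR adjusted p = 0.0727). The 10 sensors and adaptors of nucleic acids gave 0 calls among 9 tested on each FAKi day, with log2 fold changes from -0.71 to 1.10.

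Markers of the line and of other cell types were read beside these, with 5.28% of all genes called at day 21. Of 7 melanocyte lineage genes, *DCT* was called higher at day 21 (1.19 ± 0.25, edgeR adjusted p = 0.0253). The summed level of the list on that day was 14880 to 14950 CPM in FAKi and 11730 to 13970 CPM in DMSO. Of 12 blood, fibroblast and endothelial markers, *LUM* was called lower at day 21 (-1.15 ± 0.31, edgeR adjusted p = 0.0487), and the summed level was at most 7.57 CPM in FAKi and at most 11.5 CPM in DMSO. *COL1A1* and *LUM* made up nearly all of that sum, and *PTPRC* and *CD3E* were at 0 in at least 20 of the 27 libraries. The part of other cells or of lineage genes in the results above was not tested.

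The members did not move as 1 block. Across the 27 libraries, which share groups and differ in depth, Pearson's r of log2 CPM was 0.70 for *IFIT2* and *IFIT3*, 0.65 for *IFIT1* and *IFIT2* and 0.64 for *IFIT1* and *IFIT3*. After subtracting group means these were 0.15, 0.34 and 0.16. *ISG15* and *IFI6*, the short members, had an r of 0.49, and 0.41 within groups. *IFIT3* and *IFI6* went opposite ways, at -0.64 both over all libraries and within groups. Among 16974 other genes with a mean of at least 1 CPM, those most like the mean standardised level of the 9 were *ST20* (r = 0.82), *GUSB* (0.82), *IFI27L1* (0.81), *HACD1* (0.81), *HSD17B14* (0.81), *FAM149B1* (0.80), *HSD17B7P2* (0.80) and *HSPB11* (0.80).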

How the data were processed

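mRNA was sequenced from 27 libraries of 92.1 cells with a stranded kit. The deposited values are raw counts per gene, which the authors made by trimming with Trim Galore, aligning to hg38 with STAR 2.5.3a and counting exon reads of 1 transcript per gene with HOMER on GENCODE 39. The strand setting of the counting is not given in the sources used here. Groups were taken from the labelled agent and time, no library was left out, and the study's methods give triplicate plating and 3 biological repeats of the whole experiment. Which of these a numbered replicate stands for is not stated, so the spread behind the p-values may be technical.

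Each comparison was fitted with edgeR 4.0.16 in R 4.3.3 (limma 3.58.1) on its own libraries, with TMM scaling, genes under 20 counts in total removed, the quasi-likelihood F test and Benjamini-Hochberg adjustment over all genes. This replaced the study's DESeq2, run as an alternative (1.42.0). A call needed an adjusted p of at most 0.05 and a log2 fold change beyond 1; the joint test across days needed the adjusted p alone. Printed CPM were scaled by TMM over 27 libraries. The script was tested on simulated data. At day 21 deviations from the group means correlated between FAKi and DMSO libraries of the same number (r = 0.43, 0.14 and 0.65 for replicates 1, 2 and 3). No other day passed this check. The labels state no pairing, so the block at day 21 rests on this correlation alone. Short transcripts of replicate 3 also deviated least in both groups (0.22 in DMSO, 0.13 in FAKi), and the part of length in the correlation was not tested.

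The members and lists were chosen with earlier results of these data known. The 9 members are named whatever their values, other list genes where called under FAKi (up to 6 per list and day), *STAT2*, *IRF7*, *USP18* and the ligands always, and 8 genes by likeness to the members. *PMEL*, *PTPRC*, *COL1A1* and *CD3E* were named after their values were seen. Some genes that the rule names are not reported here. Alternatives changed the scaling (RLE, upper quartile), the filter (none, filterByExpr, a minimum of 10 counts throughout), the libraries fitted (all 27, or each left out), the tool (DESeq2), the call (adjusted p alone), the depth (thinned counts) or added the replicate block. Chosen after seeing the data were a length correction (loess, span 0.5, fitted per library on log2 transcript length) and the block with correction or thinning. Overlapping genes were read from GENCODE 44.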

Additional observations from a re-analysis of the deposited data

Results flagged for a closer look

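*IRF1* and *IFI6* were picked out because the FAKi effect on each differed between days in the joint test over 24 libraries. For *IRF1* the edgeR adjusted p was 0.02298, and the effect ran through -0.08, 0.31, 1.05 and -0.42 (log2) from day 3 over days 7 and 14 to day 21. For *IFI6* the edgeR adjusted p was 0.04231, and the values for those days were -0.44, 0.12, 0.32 and -1.20. Leaving out single libraries gave 0 to 3 members called in this test, and the shares of all genes in those refits are not reported here.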

How the results depend on the processing

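Leaving out 1 library gave 0 to 1 called members for FAKi at day 14, 0 to 1 at day 21, 0 to 1 for DMSO day 14 against day 0, 0 to 2 for DMSO day 21 against day 0, 0 to 1 for the mean FAKi effect (*OAS1*, -2.07, without FAKi day 7 replicate 2) and 0 to 3 for the joint test across days. The shares of all genes called in those refits are not reported here. With the replicate block the joint test called 1 member (*IRF1*) and 2264 of 27897 genes. With no count filter it called 1 member (*IFI6*) and 4831 of 42429 genes. Blocked, the day 21 value of *IFI6* was -1.12 (edgeR adjusted p = 0.00145) and its call was kept, while the genes called over the whole table at day 21 went from 1226 to 2076. At day 21 the block with the length correction called 0 members and 1976 of 23212 genes. For DMSO day 21 against day 0 the length correction called 1 member (*ISG15*) and 3748 of 22259 genes. The adjusted p alone gave 3 for DMSO day 14 against day 0, where it passed 28.3% of all genes. Among other pathway genes, the call of *IFI44* at day 14 was lost with all 27 libraries fitted together (edgeR adjusted p = 0.0921), those of *IFI44L* and *SOCS1* at day 21 with thinned counts (edgeR adjusted p = 0.0538 and 0.0635) and that of *LUM* at day 21 with upper quartile scaling or the stricter filter (edgeR adjusted p = 0.0531 and 0.0503). *STAT2* at day 21 became called with upper quartile scaling (1.04), the stricter filter (1.03), filterByExpr (1.01) and the block. The causes were not tested.

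No called value changed sign. *IFIT1* at day 3 was -0.21 with thinned counts and -0.0251 with the length correction, *ISG15* at day 3 was 0.0146 with that correction, and *IFIT1* at day 21 was 0.0037 with upper quartile scaling and 0.0032 with thinned counts and the block. The mean FAKi effect on *MX1* was 0.0028 with thinned counts. Leaving out single libraries turned the sign in *IRF1* at day 3 (-0.23 to 0.13), *IFIT1* at day 3 (-0.0588 to 0.22), day 14 (-0.0272 to 0.40) and day 21 (-0.17 to 0.15), *IFIT2* at day 14 (-0.19 to 0.28) and day 21 (-0.17 to 0.38), *IFIT3* at day 21 (-0.35 to 0.0128), *IRF9* at day 7 (-0.0004 to 0.14), *ISG15* at day 7 (-0.0812 to 0.65) and day 21 (-0.12 to 0.48), *IFI6* at day 7 (-0.10 to 0.35) and *OAS1* at day 7 (0.0926 to 0.17, main value -0.39). Among 439 values under alternatives for 28 further results, 53 changed sign, from main values of at most 0.205, and 1 became called, *IFIT2* in DMSO at day 21 against day 0 with thinned counts (log2 fold change -1.25, edgeR adjusted p = 0.0264). Of the 243 member values, 134 rest on 100 counts or fewer, which limits the precision of these fold changes.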
